A study of Mus musculus with 15 samples.

Results

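The genes described here are 10 genes that mark astrocytes and Bergmann glia in the mouse brain: Aqp4, Gja1, Slc1a3, Slc1a2, Aldoc, Aldh1l1, Etnppl, Apoe, Fabp7 and Hopx. They were found on the arrays as the probes whose RefSeq transcript belongs to one of these genes, which gave 13 probes on 31 spots. All 10 passed the filter on dim probes and were among the 21661 names tested, of 32628 names in all. Nothing measured in these samples entered the rule, but the genes were put forward with earlier results of these data known.

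RNA of 12 mouse medulloblastomas and 3 normal cerebella was hybridised to 15 one-colour (Cy3) arrays, 1 array per sample. All tumours came from Ptch1+/- mice on a C3B6F1 background, which lack 1 working copy of the Hedgehog receptor gene Ptch1 and develop medulloblastoma from granule neuron precursors. The labels call each tumour R-type or S-type and do not spell the letters out. The groups were R-type tumours after 1.5 Gy of X-rays (MB10 to MB12, ages 87 to 103), R-type tumours after 0.2 Gy (MB7 to MB9, ages 106 to 127), S-type tumours after 0.2 Gy (MB4 to MB6, ages 128 to 135), S-type tumours of nonirradiated mice (0 Gy, MB1 to MB3, ages 160 to 173) and nonirradiated normal cerebellum (NC1 to NC3, ages 103 to 113). Each group had 3 arrays, and the labels give ages without a unit. Irradiation was at postnatal day 1, and mice were killed when moribund. Every mouse was female except MB6, which was male. The genotype and strain of the normal cerebella are not given in the labels used here, so the tumour comparison may also hold a difference of genotype or strain. Ptch1 itself had levels of -3.16 to -2.70 in R-type and -2.08 to -1.47 in S-type tumours, against -3.03, -3.20 and -3.33 in normal cerebella. R-type values overlapped the normal ones, and all S-type values lay above them. Averaged over the tumour groups, the Ptch1 change was 0.80 (SE 0.13, adjusted p = 0.000134). Whether its probe lies within the deleted part is not given, so this does not check the genotype. Age, dose and type are tied together in this design, and R-type and S-type tumours share only the 0.2 Gy dose.

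Astrocytes and Bergmann glia support cerebellar neurons. They clear glutamate from synapses, take up potassium and water, couple to each other through gap junctions, and supply neurons with lipids and metabolites. Bergmann glia are the radial astrocytes whose fibres cross the molecular layer and guide migrating granule neurons. In medulloblastoma, astrocytes are known as part of the tumour stroma.

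A level below is the log2 signal of a probe relative to the 75th percentile of its own array, so 0 is the level of that percentile. A change is a difference of mean levels with its standard error from limma, fitted over all names and adjusted by Benjamini-Hochberg, with a threshold of 0.05. Levels of different probes were not set against each other. A summed signal of a list adds the unlogged levels of its genes, so bright probes weigh most in it. The 75th percentile lay between 1182 and 1369 intensity units on R-type arrays, 1241 and 1614 on S-type arrays and 1520 and 1567 on normal arrays. Of the probes, 59.1% to 66.5% were well above background. The number of arrays limits the precision, and for Etnppl the signal does too. The labels name separate tumours, but not for normal cerebella whether each came from its own animal, so p-values there cover only the spread between these samples. In bulk tissue, fewer cells of a type and less RNA per cell cannot be told apart.

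The promoters of the genes are shown first, because most of the genes moved together and 2 did not. RefSeq (GRCm38.p6) promoter sequences matched 9 of the 10 genes; Aqp4 had no entry in the table used. The window was the 250 bases before the outermost annotated start, given 5′ to 3′ on the gene's strand. Capitals mark TTGGC or its reverse complement GCCAA, the half-site of nuclear factor I (NFI) proteins, a family of glial transcription factors. The first pair are the promoters of Aldoc and Hopx, which were far lower in tumours, and the second pair those of Fabp7 and Apoe, which did not pass the test in that comparison. Aldoc lies at chr11:78322823-78323072 on the plus strand, Hopx at chr5:77115124-77115373 on the minus strand, Fabp7 at chr10:57784673-57784922 on the plus strand and Apoe at chr7:19699189-19699438 on the minus strand.
Aldoc: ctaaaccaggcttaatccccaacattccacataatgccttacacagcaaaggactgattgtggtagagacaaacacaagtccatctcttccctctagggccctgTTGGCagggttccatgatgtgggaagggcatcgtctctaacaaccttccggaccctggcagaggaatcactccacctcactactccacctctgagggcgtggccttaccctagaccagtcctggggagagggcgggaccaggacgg
Hopx: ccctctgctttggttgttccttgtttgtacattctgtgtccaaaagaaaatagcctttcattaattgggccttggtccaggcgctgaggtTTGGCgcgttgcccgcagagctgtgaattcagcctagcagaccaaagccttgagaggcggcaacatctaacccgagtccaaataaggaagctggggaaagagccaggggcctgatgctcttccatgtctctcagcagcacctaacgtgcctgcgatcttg
Fabp7: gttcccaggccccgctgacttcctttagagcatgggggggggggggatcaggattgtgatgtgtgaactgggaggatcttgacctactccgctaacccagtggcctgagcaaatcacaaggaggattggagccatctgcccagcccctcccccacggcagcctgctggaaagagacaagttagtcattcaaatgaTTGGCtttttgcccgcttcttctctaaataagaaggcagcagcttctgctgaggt
Apoe: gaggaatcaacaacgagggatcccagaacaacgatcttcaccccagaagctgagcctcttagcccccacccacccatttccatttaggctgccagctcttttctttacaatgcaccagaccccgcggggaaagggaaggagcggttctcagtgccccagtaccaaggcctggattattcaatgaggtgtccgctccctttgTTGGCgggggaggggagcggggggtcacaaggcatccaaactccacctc

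The NFI half-site starts 146 bases before the start of Aldoc, 160 before Hopx, 55 before Fabp7 and 49 before Apoe. Slc1a2 also holds it, 114 bases before its start, which makes 5 of 9 genes, against 41.5% of all 32851 promoter windows of the same length. TGGGAA or TTCCCA, the core bound by the Notch effector RBPJ, was found in 4 of 9 genes (Aldoc, Aldh1l1, Etnppl and Fabp7), against 21.6% of all windows. AACAAT or ATTGTT, a SOX protein core, was in none of the 9 and in 9.42% of all windows. In these 9 windows no match of one motif overlapped a match of another. Aldoc, Hopx and Slc1a2, which were lower by the test, hold the NFI half-site, as do Apoe and Fabp7, which did not pass. Gja1, Slc1a3, Aldh1l1 and Etnppl, which were also lower, do not hold it. A match describes letters and not a used site.

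In tumours against normal cerebellum, 8 of the 10 genes were lower and none was higher; over all tested names 35.4% were lower and 43.5% higher. The median change of the 10 was -3.71, against 0.14 over all tested names. For 7 of the 10 no tumour value overlapped a normal value; this held for 65.6% of all names. The 2 lipid carriers, Apoe and Fabp7, did not pass the test. The plot of levels by array shows these gaps and the spread among tumours.

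**Figure D1:**
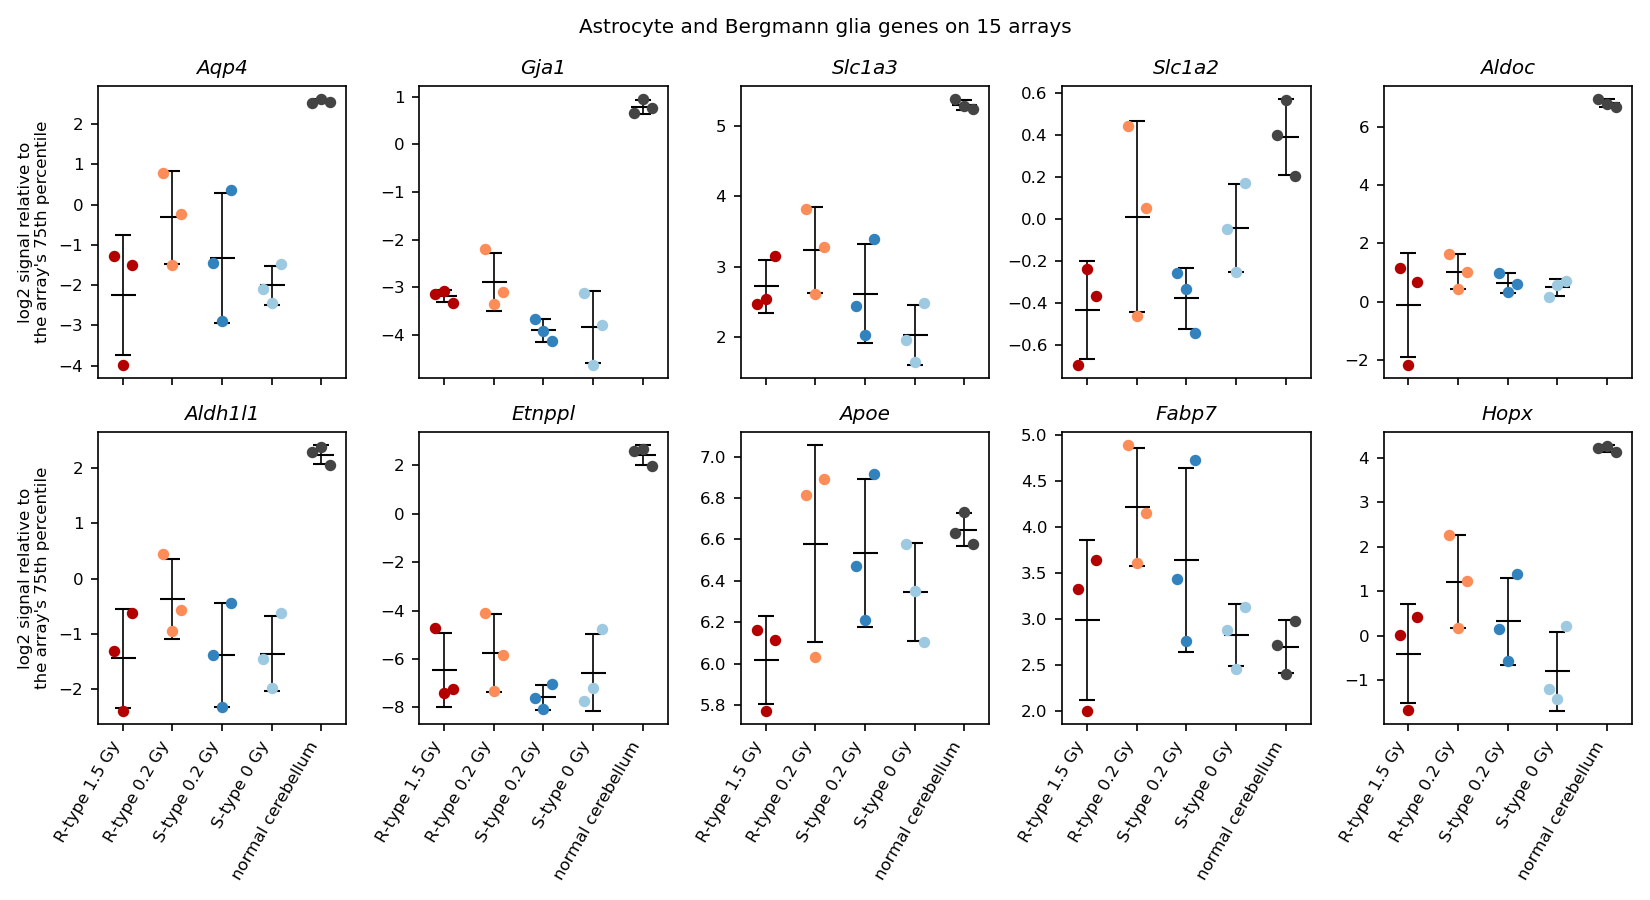
Log2 signal relative to the array's 75th percentile (vertical axes, a scale of its own for each gene) in the R-type 1.5 Gy, R-type 0.2 Gy, S-type 0.2 Gy, S-type 0 Gy and normal cerebellum groups, 3 arrays each. Points are arrays, and bars are means with SD; the 3 normal values lie above every tumour value for Aqp4, Gja1, Slc1a3, Aldoc, Aldh1l1, Etnppl and Hopx.

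The water channel and the gap junction gene were both lower in every tumour. Aqp4, the aquaporin of astrocyte endfeet, had levels of -1.27, -3.98 and -1.50 in R-type 1.5 Gy tumours, 0.79, -1.51 and -0.24 in R-type 0.2 Gy tumours, -1.46, -2.88 and 0.36 in S-type 0.2 Gy tumours and -2.09, -2.44 and -1.49 in S-type 0 Gy tumours, against 2.53, 2.61 and 2.55 in normal cerebella. MB7 and MB6 were the highest tumours and MB11 the lowest, while the 3 normal values were nearly equal. The change was -4.04 (SE 0.68, adjusted p = 0.000138, lower in 12 of 12 tumours). Aqp4 has 3 probes on the array, whose changes were -4.04, -4.10 and -3.87.

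Gja1, which encodes connexin 43, the main astrocyte gap junction protein, had levels of -3.13, -3.08 and -3.34 in R-type 1.5 Gy tumours, -2.20, -3.36 and -3.10 in R-type 0.2 Gy tumours, -3.66, -3.91 and -4.13 in S-type 0.2 Gy tumours and -3.11, -4.62 and -3.79 in S-type 0 Gy tumours, against 0.66, 0.94 and 0.76 in normal cerebella. Every tumour was below every normal cerebellum by more than the spread in either set. The change was -4.24 (SE 0.27, adjusted p = 2.298e-08), or 18.9-fold lower. Gja1 is read by 10 spots per array, whose median SD within an array was 0.054, far below the SD of 0.62 between tumours.

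The glutamate transporters differed in their changes, and the 2 probes of Slc1a2 are annotated to different RefSeq transcripts. Slc1a3, the Bergmann glia transporter GLAST, ranged from 1.66 to 3.82 with a median of 2.52 in the 12 tumours, against 5.38, 5.28 and 5.24 in normal cerebella. All tumours lay below all normal cerebella, and the change was -2.65 (SE 0.29, adjusted p = 3.36335e-06). Slc1a2, the astrocyte transporter GLT-1, ranged from -0.69 to 0.44 with a median of -0.26 in tumours, against 0.40, 0.56 and 0.21 in normal cerebella. Here MB7 overlapped the normal values. The change was -0.60 (SE 0.17, adjusted p = 0.00513). This rests on the brighter of its 2 probes: in a fit over probes the other was higher in tumours by 0.29 (SE 0.11, adjusted p = 0.025), and the mean of both probes gave -0.16 (adjusted p = 0.274), so the call for Slc1a2 depends on the probe.

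Of the metabolic genes, Aldoc and Etnppl had the widest gaps of the 10 and Aldh1l1 a narrower one. Aldoc, the brain fructose-bisphosphate aldolase found in astrocytes and in bands of Purkinje cells, ranged from -2.15 to 1.65 with a median of 0.63 in tumours, against 6.95, 6.79 and 6.69 in normal cerebella. The change was -6.29 (SE 0.52, adjusted p = 2.24672e-07), or 78.3-fold lower, and MB11 was the lowest tumour. Because Purkinje cells also express Aldoc, its change cannot be assigned to glia from these data. Aldh1l1, the folate enzyme used as a pan-astrocyte marker, ranged from -2.40 to 0.45 with a median of -1.14 in tumours, against 2.29, 2.39 and 2.07 in normal cerebella, a change of -3.39 (SE 0.44, adjusted p = 1.53119e-05).

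Etnppl, the ethanolamine-phosphate phospho-lyase of astrocytes, was near background in tumours. It was well above background in 3 of 12 tumours (MB3 of S-type 0 Gy, MB7 of R-type 0.2 Gy and MB10 of R-type 1.5 Gy) and on all 3 normal arrays, whose levels were 2.60, 2.69 and 1.95. The levels of those 3 tumours were -4.76, -4.09 and -4.71. The fitted change was -9.00 (SE 0.75, adjusted p = 2.28299e-07); its size rests on values below background in 9 tumours. With each of those set at least to the lowest signal well above background on its array, Etnppl was at least 190-fold lower. In S-type 0.2 Gy tumours, where no array was well above background, it was at least 229-fold lower than in normal cerebella.

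Hopx, a small homeodomain cofactor that does not bind DNA itself, had levels of 0.02, -1.67 and 0.43 in R-type 1.5 Gy tumours, 2.26, 0.18 and 1.22 in R-type 0.2 Gy tumours, 0.14, -0.56 and 1.37 in S-type 0.2 Gy tumours and -1.19, -1.42 and 0.21 in S-type 0 Gy tumours, against 4.22, 4.26 and 4.12 in normal cerebella. The highest tumour, MB7, still lay below every normal cerebellum. The change was -4.12 (SE 0.54, adjusted p = 1.57995e-05).

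Neither lipid carrier passed the test over all tumours. Apoe, the lipoprotein that astrocytes and microglia secrete, ranged from 5.77 to 6.92 with a median of 6.28 in tumours, against 6.63, 6.73 and 6.58 in normal cerebella. Tumours lay on both sides of the normal values. The change was -0.28 (SE 0.19, 95% interval -0.68 to 0.13, adjusted p = 0.188); with quantile normalization it was -0.91 (adjusted p = 0.00110), so the call for Apoe depends on the scaling. Its 10 spots per array had a median SD of 0.051.

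Fabp7, the brain lipid-binding protein of radial glia, Bergmann glia and progenitors, had levels of 3.32, 2.00 and 3.64 in R-type 1.5 Gy tumours, 4.89, 3.60 and 4.15 in R-type 0.2 Gy tumours, 3.43, 2.75 and 4.73 in S-type 0.2 Gy tumours and 2.88, 2.46 and 3.13 in S-type 0 Gy tumours, against 2.72, 2.39 and 2.98 in normal cerebella. Only the R-type 0.2 Gy tumours all lay above the normal values. Over all tumours the change was 0.72 (SE 0.41, 95% interval -0.18 to 1.62, adjusted p = 0.129). Fabp7 was the only one of the 10 with a median tumour level above all 3 normal levels.

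**Figure D2:**
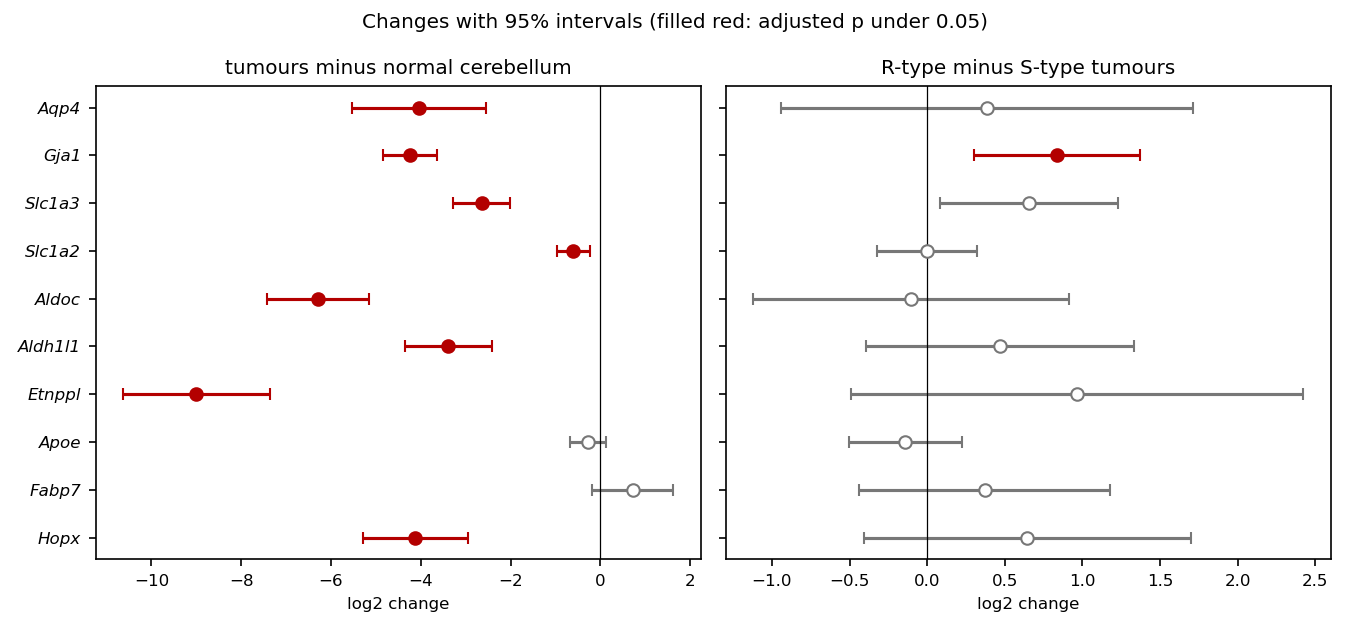
Log2 changes (horizontal axes) of the 10 genes with 95% intervals, for tumours minus normal cerebellum (left, 12 against 3 arrays) and R-type minus S-type tumours (right, 6 against 6). Filled red points passed the threshold: 8 genes lower on the left and Gja1 higher on the right, where the value of Etnppl rests mostly on signals below background.

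Each tumour group was also set against normal cerebellum; these comparisons share the 3 normal arrays. In R-type 1.5 Gy tumours 9 of 10 genes were lower (33.4% of all names), in R-type 0.2 Gy tumours 7 (33.3%), in S-type 0.2 Gy tumours 8 (33%) and in S-type 0 Gy tumours 7 (33.1%). Aqp4, Gja1, Slc1a3, Aldoc, Aldh1l1, Etnppl and Hopx were lower in all 4. Slc1a2 was lower by the test in R-type 1.5 Gy and S-type 0.2 Gy tumours, with changes of -0.82 and -0.77, and had -0.38 in R-type 0.2 Gy and -0.43 in S-type 0 Gy tumours (adjusted p = 0.120 and 0.0791). Its other probe was higher in R-type 0.2 Gy and S-type 0 Gy tumours, by 0.38 (adjusted p = 0.0238) and 0.62 (adjusted p = 0.00126) in the fit over probes. In R-type 1.5 Gy and S-type 0.2 Gy tumours that probe did not pass, with -0.08 and 0.25 (adjusted p = 0.617 and 0.119). Without MB7, Slc1a2 was lower in R-type 0.2 Gy tumours by the test (-0.60, adjusted p = 0.0171), as it was with no scaling between arrays (-0.65), and with the mean of both probes the S-type 0.2 Gy call ended (-0.26, adjusted p = 0.157). In S-type 0 Gy tumours it passed with arrays of the compared groups only, with no scaling and with normexp (adjusted p = 0.0449 to 0.0467). Apoe fell by 0.63 in R-type 1.5 Gy tumours (SE 0.24, adjusted p = 0.0284), a call that ended without MB11, NC1 or NC2 (adjusted p up to 0.104) and under median scaling. Fabp7 rose by 1.52 in R-type 0.2 Gy tumours (SE 0.52, adjusted p = 0.0198, higher in 3 of 3), where 40.8% of all names were higher. Without MB7 it was higher by 1.18 (adjusted p = 0.0832).

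In R-type against S-type tumours, 1 of the 10 genes was higher and none lower; 11.1% of all names were higher. That gene was Gja1, with -3.36 to -2.20 and a median of -3.11 in the 6 R-type tumours, against -4.62 to -3.11 and a median of -3.85 in the 6 S-type tumours. The groups overlapped, and S-type MB1 lay within the R-type range. Gja1 rose by 0.84 (SE 0.25, 95% interval 0.30 to 1.37, adjusted p = 0.0322), or 1.79-fold, and the R-type side was higher on all 4 slides, by 0.41 to 1.25. Without MB2, MB5, MB6, MB7, MB10 or MB11, each left out alone, the change did not pass (adjusted p = 0.0511 to 0.0709), nor with slide as a block (adjusted p = 0.0634). None of the 10 genes had non-overlapping values between R-type and S-type tumours, against 9.36% of all names.

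The other 9 did not pass this test. Slc1a3 was higher by 0.66 (SE 0.26, adjusted p = 0.0948), and passed when MB6 or MB8 was left out (0.85 with adjusted p = 0.0305, and 0.81 with adjusted p = 0.0469). Hopx had 0.65, with an interval from -0.41 to 1.70. Etnppl was well above background in 2 of 6 R-type and 1 of 6 S-type tumours, so its difference cannot be sized. Slc1a2 had 0.00 with an interval from -0.32 to 0.32, the narrowest of the 10. Aldoc had -0.10 (-1.12 to 0.92) and Aqp4 0.39 (-0.94 to 1.71).

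At 0.2 Gy, the 1 dose that both types share, none of the 10 genes passed the test between R-type and S-type tumours in limma, against 4.76% of all names. At an unadjusted p under 0.05 there was 1 of the 10, against 21.9% of all names. That gene was Gja1, which was 1.02 higher in R-type tumours (SE 0.35, adjusted p = 0.114). Etnppl, whose S-type 0.2 Gy arrays were all near background, had a difference that cannot be sized. The dose comparisons within a type called none of the 10 either. Between 1.5 Gy and 0.2 Gy in R-type tumours limma called 0 of the 10 and 0.0692% of all names; at an unadjusted p under 0.05 there were 4 of the 10 and 7.06% of all names. Between 0.2 Gy and 0 Gy in S-type tumours it called 0 of the 10 and 0.00462% of all names, and at an unadjusted p under 0.05 there were 0 of the 10 and 5.75% of all names. The 4 genes of the R-type comparison had lower mean levels after 1.5 Gy, with differences against 0.2 Gy for Aqp4 of -1.93 (95% interval -3.80 to -0.05), for Hopx of -1.62 (-3.11 to -0.13), for Fabp7 of -1.23 (-2.37 to -0.08) and for Apoe of -0.56 (-1.08 to -0.05). Their adjusted p was 0.666 to 0.699. Without MB11, Aqp4 had -1.06, Hopx -0.99, Fabp7 -0.73 and Apoe -0.44, and without MB7 they had -1.37, -1.10, -0.89 and -0.45.

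A few tumours held most of the highest and lowest levels. MB7, of the R-type 0.2 Gy group, had the highest level of the 12 tumours for 9 of the 10 genes, and MB6, of the S-type 0.2 Gy group, for Apoe. MB9 was among the top 3 for 9 genes. MB11, of the R-type 1.5 Gy group, was lowest for 6 genes: Aqp4, Aldoc, Aldh1l1, Apoe, Fabp7 and Hopx. It was not lowest for Gja1, Slc1a3, Slc1a2 or Etnppl, and it lay 0.37 above the tumour mean for Gja1. MB6 lay 1.83 above the mean for Aqp4 but had -0.68 for Gja1, so the order of tumours differed between genes. MB7 was on slide 3, MB9 on slide 4, MB6 on slide 1 and MB11 on slide 2. The part of slide in the order of tumours was not tested.

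**Figure D3:**
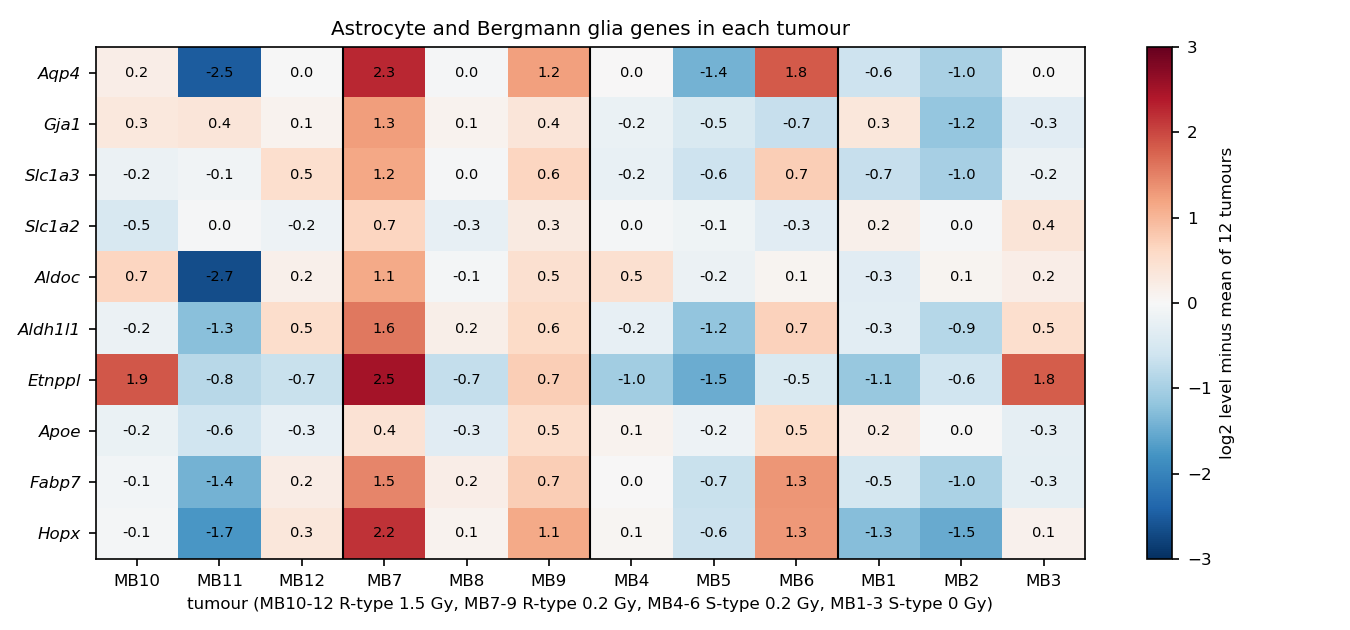
Level of each gene (rows) in each tumour (columns) minus its mean over the 12 tumours, in log2 units, with groups parted by lines. MB7 is positive for all 10 genes and MB11 reaches -2.7 for Aldoc and -2.5 for Aqp4.

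The same tumours stood out in a wider list of glial genes. Of 71 further astrocyte and Bergmann glia genes, 70 were tested; the list was drawn up with results of these data known. MB7 was highest among tumours for 39 of 70 (55.7%), against 6.72% of all tested names, and MB11 was lowest for 28 of 70 (40%), against 7.87%. MB7 had the top value of 7 of 8 genes for water, potassium, chloride and gap junctions and of 11 of 12 secreted and matrix genes, but of 3 of 9 Bergmann glia genes and 2 of 11 glial transcription factors. Of 12 genes of reactive astrocytes, MB7 and MB6 each had the top value of 5. For radial glia and stem cell genes, which include Slc1a3 and Fabp7 from the 10, MB7 was highest in 4 of 11. Among other cell types it had the top value of 3 of 9 meningeal fibroblast genes and 1 of 12 Purkinje cell genes. It also had that of 1 of 11 microglia and macrophage and 1 of 8 choroid plexus genes. None of the 12 mature granule neuron, 9 oligodendrocyte or 12 granule neuron precursor genes was highest in MB7. MB11 was also lowest for 6 of 11 microglia and macrophage genes and 4 of 9 oligodendrocyte genes. The same held for 4 of 12 Purkinje cell genes and 4 of 12 mature granule neuron genes. In contrast, MB11 was highest for 6 of 10 endothelial genes and 3 of 9 meningeal fibroblast genes, against 14.5% of all tested names. What these tumours share beyond these values was not tested.

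**Figure D4:**
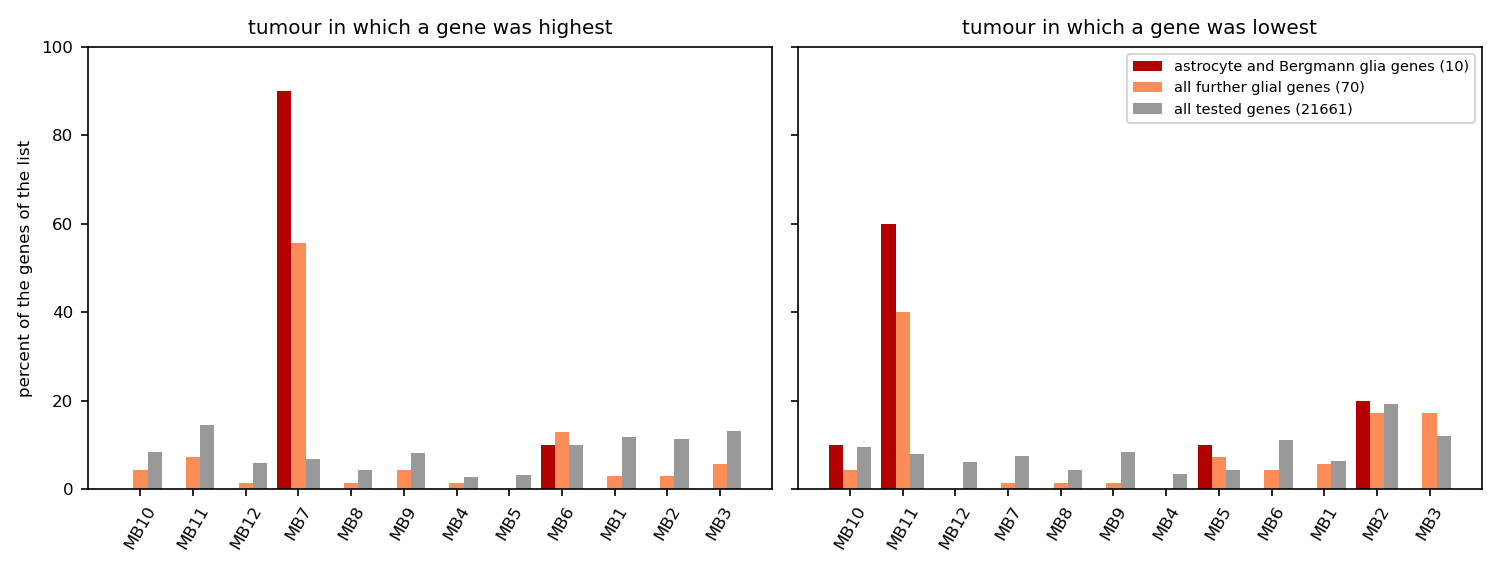
Percent of the genes of a list (vertical axis) that were highest (left) or lowest (right) in each of the 12 tumours, for the 10 astrocyte and Bergmann glia genes, 70 further glial genes and all 21661 tested names. MB7 holds the highest value for 90% and 55.7% of the glial lists, against 6.72% of all names.

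Other glial genes moved mostly down in tumours, with exceptions by role. Of the 70, 45 were lower and 16 higher than in normal cerebellum, against 35.4% and 43.5% of all names. Their median change was -2.23. All 8 genes for water, potassium, chloride and gap junctions were lower, among them Kcnj10 (-3.34, SE 0.38), the inward rectifier Kir4.1, and Hepacam (-3.06, SE 0.32), an adhesion protein of astrocyte junctions. Of 8 transmitter and ion uptake genes 7 were lower, including Glul (-1.71, SE 0.13), glutamine synthetase. Of 10 metabolism genes 9 were lower, with Ndrg2 at -2.96 and Mt3 at -2.01.

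Bergmann glia genes were lower in 7 of 9 tested and higher in 1. Gria4, an AMPA receptor subunit, had -2.33 (SE 0.16), Ednrb, the endothelin B receptor, -3.42 (SE 0.29), and Gdf10, a secreted BMP-family factor, -5.84 (SE 0.66, well above background in 11 of 12 tumours). The gene that rose was Vim, the intermediate filament vimentin, by 0.59 (SE 0.18, adjusted p = 0.00813). Of 12 secreted and matrix genes, 9 were lower and 1 higher: Htra1, a serine protease, had -3.63 (SE 0.15), while Ncan, the matrix proteoglycan neurocan, rose by 2.73 (SE 0.10). Neurocan is also made by neurons.

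Of 11 glial transcription factors, 5 were higher and 4 lower, near the shares of all names (43.5% and 35.4%). Nfib and Nfia, members of the NFI family whose half-site is marked in the promoters above, rose by 2.48 (SE 0.08) and 2.54 (SE 0.08), and Sox9 by 1.95 (SE 0.11). Lhx2 was not well above background in normal cerebella and was at least 205-fold higher in tumours. These factors are also expressed by granule neuron precursors or other progenitors. Id4, a dominant-negative helix-loop-helix protein and the gene nearest to Aldoc in profile, fell by 5.96 on the log2 scale (SE 0.59).

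Of 12 genes of reactive astrocytes, 9 were higher and 1 lower, against 43.5% and 35.4% of all names. The summed signal of this list, in which bright genes weigh most, went the other way. It was 15.4 to 43.3 in R-type and 17.2 to 47.2 in S-type tumours, against 93.6 to 110 in normal cerebella. The mean log2 level of the list in normal cerebella was low, at -2.64 to -2.29. Nes, the progenitor filament nestin, rose by 4.03 (SE 0.26), Timp1, a metalloproteinase inhibitor, by 3.08 (SE 0.32) and Osmr, the oncostatin M receptor, by 1.58 (SE 0.16). Steap4 was not well above background in normal cerebella and was at least 2.48-fold higher in tumours. S100b, a calcium-binding protein of glia, fell by 3.05 on the log2 scale (SE 0.48). Gfap, the filament protein of reactive astrocytes, had a change of 0.36 (SE 0.27, adjusted p = 0.239) and did not pass. Of 11 radial glia and stem cell genes, which include Slc1a3 and Fabp7 from the 10, 3 were higher and 5 lower.

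**Figure D5:**
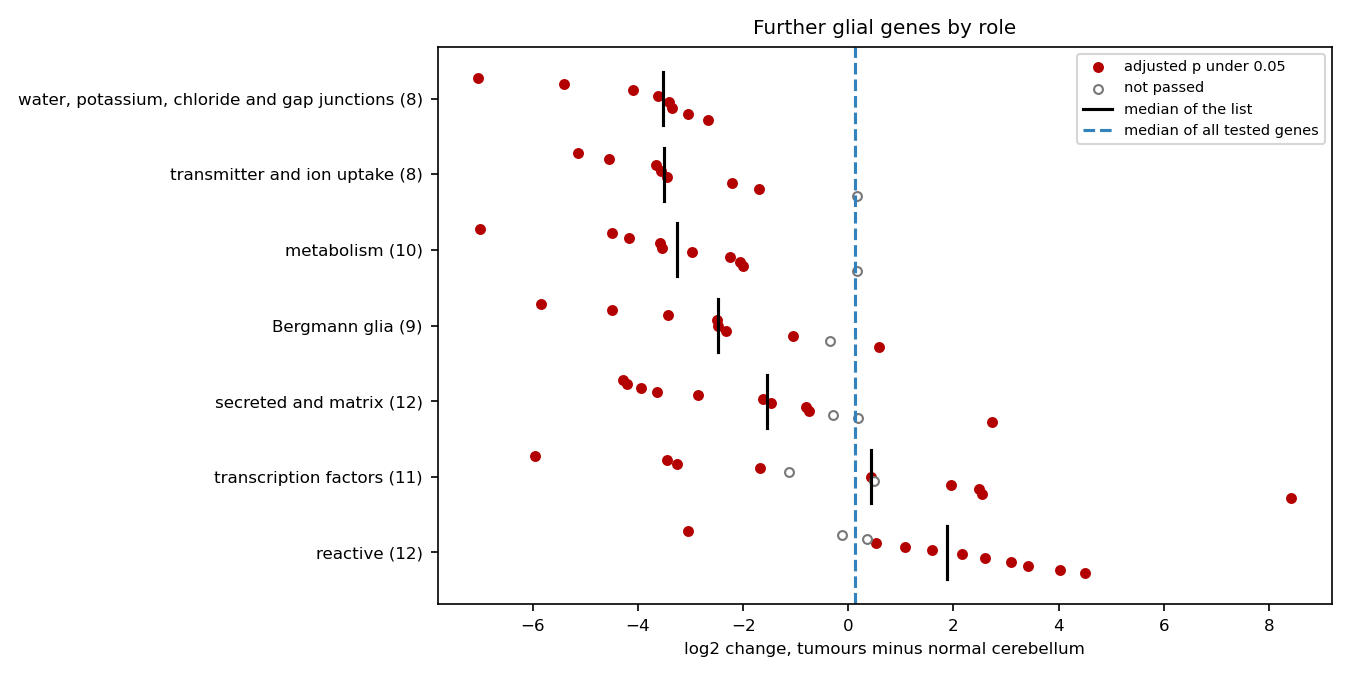
Log2 change, tumours minus normal cerebellum (horizontal axis), of the 70 further glial genes by role; each point is a gene, black bars are medians of the list and the dashed line the median of all tested names at 0.14. Genes for water, potassium, chloride and gap junctions all lie left of it, with a median of -3.52, and reactive genes centre on 1.88.

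Lists of other cell types moved in the same comparison, where 43.5% of all names were higher and 35.4% lower. All 12 Purkinje cell genes and all 12 mature granule neuron genes were lower in tumours, as were 8 of 9 oligodendrocyte genes. The summed signal of the Purkinje list, relative to the array's 75th percentile, was 6.83 to 8.90 in R-type and 6.28 to 10.8 in S-type tumours, against 398 to 427 in normal cerebella, and Ppp1r17, one of its genes, was well above background in 6 of 12 tumours. That of the oligodendrocyte list was 8.53 to 12.5 in R-type and 9.16 to 12.2 in S-type tumours, against 63.5 to 99.9 in normal cerebella, and its genes Mog and Opalin were well above background in 0 of 12 tumours. All 8 genes of dividing cells were higher. Their summed signals were 83.6 to 108 in R-type and 77.7 to 105 in S-type tumours, against 0.216 to 0.362 in normal cerebella. Aurkb, Cdk1, Ccnb1 and Top2a of this list were well above background in no normal cerebellum. The normal sums thus rest partly on background, and the size of this gap is not measured. Granule neuron precursor genes were higher in 7 of 12 and lower in 2, and microglia and macrophage genes higher in 8 of 11 and lower in 1. The part of these other cells in the levels of the 10 genes was not tested.

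For R-type against S-type tumours, 3 of the 70 further glial genes were higher and none lower, a smaller share than the 11.1% of all names called higher, with a median change of 0.22, against 0.02 over all names. They were Vim, by 0.52 (SE 0.16, adjusted p = 0.0357), Sox9, by 0.38 (SE 0.09, adjusted p = 0.016), and Emx2, a homeobox factor well above background in 7 of 12 tumours, by 1.77 (SE 0.47, adjusted p = 0.0211). Prom1, the stem cell marker prominin 1, rose by 0.76 (SE 0.11, adjusted p = 0.001) in the radial glia list. The microglia genes Cx3cr1 and P2ry12 were lower in R-type tumours, with changes of -0.45 and -0.62. Over all names 10% were lower. Mean levels of the microglia and macrophage list were -0.14 to 0.20 in R-type 1.5 Gy and 0.17 to 0.66 in R-type 0.2 Gy tumours. Those of S-type tumours overlapped the latter, with 0.41 to 0.86 at 0.2 Gy and 0.32 to 0.65 at 0 Gy.

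Among 13419 other named genes, the one nearest to each of the 10 in centred profile over the 15 arrays was found by root mean square distance in log2 units. Mlc1, a membrane protein of astrocyte endfeet mutated in a human leukodystrophy, was nearest to Aqp4 (0.36), Aldh1l1 (0.37) and Hopx (0.35). S1pr1, a sphingosine phosphate receptor, was nearest to Gja1 (0.35), Gstm3, a glutathione transferase, to Slc1a3 (0.31), and Hes5, a Notch target, to Fabp7 (0.50). The other nearest genes were Id4 for Aldoc (0.47), Gyg for Apoe (0.16), Fggy for Slc1a2 (0.19) and Kcng4 for Etnppl (0.95, well above background on 3 arrays only). Within the 10, the nearest pairs were Slc1a2 with Apoe (0.37), which changed least, and Aqp4 with Hopx (0.40). These distances describe the same 15 arrays and carry no test.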

How the data were processed

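RNA of 12 tumours and 3 normal cerebella had been measured on 1 array each. Per the file headers, the spot intensity values were background-subtracted and spatially detrended on a linear scale, with no scaling between arrays. Per the submitters' processing notes, extraction used Agilent Feature Extraction, version 9.5.1. The deposited series table held log2 values whose making was not stated. Its between-array differences correlated with those of the scanner files at 0.99987 to 0.99999, and its column medians were 0.0024 (NC1), 0.082 (NC2), 0.089 (NC3), 0.051 (MB1), -0.051 (MB2), 0.11 (MB3), 0.068 (MB4), -0.079 (MB5), 0.052 (MB6), 0.070 (MB7), 0.13 (MB8), 0.13 (MB9), 0.091 (MB10), 0.15 (MB11) and 0.099 (MB12). Its direction and log2 scale followed the scanner values, and each probe was centred on the mean of MB1 and MB2, whose deposited values summed to 0 within 1e-06.

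Scanner intensities were taken as log2 minus the 75th percentile of each array. Control spots and 76 probes with outlier flags were left out. Probes were named by RefSeq accession (24844 of the 26382 with one), the brightest probe stood for a gene, and a name was tested if well above background on 3 of 15 arrays. Limma 3.58.1 (R 4.3.3) was fitted over the 5 groups with empirical Bayes moderation; figures and promoter matches used Python 3.11.15. The fit was also run on simulated data with 200 changed genes and independent noise. In these data 78.9% of names were called between tumours and normal cerebellum, so that run checks only the working of the code. Alternatives covered scaling, background correction, filters, probe rule, slide as a block, the groups in the fit, the series table and leaving out each array.

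The 10 genes, the lists and the tests were chosen with earlier results of these data known. Named genes were the 10, up to 4 genes of each other list with the smallest adjusted p, and each one's nearest gene; further genes were named for their place in a role after their values were seen.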

Additional observations from a re-analysis of the deposited data

Results flagged for a closer look

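In 6 R-type tumours, MB7 stood apart for Gja1 with a level of -2.20, and MB11 for Aldoc with -2.15. In 6 S-type tumours, MB3 stood apart for Etnppl with -4.76, the only S-type value well above background, so the gap rests on 5 values below it. Each was far from the nearest of the other 5 values of its type relative to the range. There were 20 such checks, and chance gives about 1 in 20. The 10 genes were read on the same tumours, so the checks are not independent and this rate is only a rough guide. MB7 is the tumour with the highest level of 9 of the 10 genes, and MB11 that with the lowest level of 6.

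Gja1 was also listed because its change between R-type and S-type tumours passed the test, at 0.84.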

How the results depend on the processing

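Over the alternatives, Aqp4, Gja1, Slc1a3, Aldoc, Aldh1l1, Etnppl and Hopx kept their call and direction against normal cerebellum in every one of the 25 tried, with Etnppl between -9.23 without NC3 and -6.49 with normexp background correction. Between R-type and S-type tumours, the count of called genes was 0 with arrays of the compared groups only, with no filter on dim probes, with no scaling between arrays and with slide as a block, against 1 in the reported fit, and 0 to 2 when single arrays were left out. The lost call was Gja1, at an adjusted p of 0.0511 to 0.0709; the cause was not tested. Slc1a3 was called there without MB6 or MB8. Slc1a2 lost its call with the mean of its probes, and Apoe gained one with quantile normalization (-0.91) and lost that in R-type 1.5 Gy tumours under median scaling (-0.53). Fabp7 in R-type 0.2 Gy tumours lost its call with no scaling between arrays (1.25), without MB7 (1.18) and without NC2 (1.37), and gained one in S-type 0.2 Gy tumours without MB5 (1.39). Scaling moved the median of all names for tumours against normal cerebellum from 0.14 to -0.04 with no scaling and 0.17 with median scaling. For R-type against S-type tumours that median went from 0.02 to -0.20 with no scaling and 0.09 with median scaling. Gja1 there had 0.62 with no scaling (limma adjusted p = 0.0547). All changes are relative to such shifts. Replicate numbers 1 to 3 of S-type 0 Gy tumours and normal cerebella name different animals, and their deviations correlated at -0.02 to 0.05 for the same number, so they pair no samples; with the replicate block over these 6 arrays 7 genes passed, against 8 over the same arrays without it and 7 in the reported fit.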

Other observations

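Genes of oligodendrocyte precursors were higher in tumours than in normal cerebellum for 3 of 5 tested and lower for none. Over all names 43.5% were higher and 35.4% lower. Pdgfra, the platelet-derived growth factor receptor alpha, rose by 4.30 (SE 0.27, adjusted p = 1.90316e-08), Olig2 by 2.61 (SE 0.31) and Cspg4, the NG2 proteoglycan, by 2.06 (SE 0.28). Other tumours stood out for other cell types: MB2 was highest of the 12 for 8 of 12 mature granule neuron genes and 5 of 8 choroid plexus genes, and MB6 for 8 of 11 microglia and macrophage genes.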
